A study of Mus musculus with 6 samples.

Results

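Genes of the major histocompatibility complex (MHC) and of antigen processing were followed in RNA of primary retinal pigment epithelium (RPE) cells, the pigmented layer behind the photoreceptors, from mice with proliferative vitreoretinopathy (PVR) and from normal mice. PVR is a scarring disorder of the injured eye. Members were chosen by symbol: every gene named H2- other than the H2-Ke genes, together with B2m, Tap1, Tap2, Tapbp, Tapbpl, Nlrc5, Ciita, Cd74, Psmb8, Psmb9, Psmb10, Erap1, Pdia3, Calr and Cd1d1. This gave 48 members among 28043 genes. Of these, 20 were grouped as class I heavy chain genes and 10 as class II chain genes, some of them pseudogenes. The pseudogenes H2-K2, H2-Pa and H2-Pb were left out of both groups and of their sums. There were 3 PVR and 3 Normal libraries of polyadenylated RNA. The series title places the cells in a study of traumatic PVR and of RANK and NFATc1 signalling. The labels used here give no strain, allele, age, time after injury or agent for either group, and do not say whether a library came from 1 animal or from several. Nothing in them says that the replicates of a group were separate animals, so p-values measure no more than how these libraries varied, and that variation may be technical.

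Class I molecules are formed by a heavy chain and beta-2-microglobulin (B2m). They show peptides from inside the cell, cut by the proteasome and pumped into the endoplasmic reticulum by the transporter TAP. Class II molecules pair an alpha with a beta chain, are chaperoned by the invariant chain Cd74, and show peptides from the endosome. Class I genes are widely expressed and are switched on further through the transactivator Nlrc5, whereas class II genes are mostly used by macrophages, dendritic cells and B cells under the transactivator Ciita. RPE cells belong to the immune-privileged eye and are known to raise both classes under interferon gamma.

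Between 15269983 and 19173187 reads were assigned to genes in each library, and 3 reads corresponded to 2.72 to 3.42 normalised counts. Markers of the labelled cell type were abundant in both groups: the summed normalised counts of 11 RPE genes were 538269 to 577782 in PVR and 723031 to 778753 in Normal libraries. Of those 11, 5 were lower in PVR, among them Rpe65, the visual cycle isomerase (31775 ± 5689 in PVR and 86793 ± 3425 in Normal, SD, n = 3 each). Macrophage markers stood beside them: 16 of 17 were higher in PVR and 1, Csf1r, was lower. For comparison, 17.9% of all genes tested were higher in PVR and 12.9% were lower. In bulk RNA a different number of cells of a type and a different amount of RNA per cell cannot be told apart.

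The promoters of members on which the results turn are shown first, because several class I and class II genes hold the same short promoter elements. The windows run from 250 bases before to 50 bases after the annotated start (RefSeq, GRCm38.p6) and are written 5′ to 3′ on the strand of the gene. Capitals mark matches, on either strand, to 5 motifs: the NF-kB site of class I genes GGGATTCCC, the Y box core CTGATTGG (CCAATCAG on the opposite strand), the CRE core TGACG, the interferon-stimulated response element core GAAANNGAA and the gamma-activated sequence core TTCNNNGAA.
H2-K1 (chr17:34000284-34000583, minus strand): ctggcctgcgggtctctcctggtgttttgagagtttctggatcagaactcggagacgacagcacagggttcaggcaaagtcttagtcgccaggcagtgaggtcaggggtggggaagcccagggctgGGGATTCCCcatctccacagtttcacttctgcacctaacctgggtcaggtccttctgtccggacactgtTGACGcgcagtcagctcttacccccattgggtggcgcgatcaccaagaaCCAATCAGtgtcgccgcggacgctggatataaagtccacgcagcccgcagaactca
H2-D1 (chr17:35262844-35263143, plus strand): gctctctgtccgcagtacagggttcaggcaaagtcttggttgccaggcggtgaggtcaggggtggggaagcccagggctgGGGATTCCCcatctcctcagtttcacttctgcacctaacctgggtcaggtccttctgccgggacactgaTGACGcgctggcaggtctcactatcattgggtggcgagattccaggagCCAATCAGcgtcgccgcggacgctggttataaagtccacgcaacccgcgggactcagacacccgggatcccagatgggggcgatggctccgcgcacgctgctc
H2-M5 (chr17:36989484-36989783, minus strand): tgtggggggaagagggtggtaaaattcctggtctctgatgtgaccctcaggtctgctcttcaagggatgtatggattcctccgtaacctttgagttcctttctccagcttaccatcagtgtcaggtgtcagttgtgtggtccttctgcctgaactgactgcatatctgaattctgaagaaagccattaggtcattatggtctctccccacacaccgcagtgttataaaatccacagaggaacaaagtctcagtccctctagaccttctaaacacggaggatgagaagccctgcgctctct
H2-Aa (chr17:34287774-34288073, minus strand): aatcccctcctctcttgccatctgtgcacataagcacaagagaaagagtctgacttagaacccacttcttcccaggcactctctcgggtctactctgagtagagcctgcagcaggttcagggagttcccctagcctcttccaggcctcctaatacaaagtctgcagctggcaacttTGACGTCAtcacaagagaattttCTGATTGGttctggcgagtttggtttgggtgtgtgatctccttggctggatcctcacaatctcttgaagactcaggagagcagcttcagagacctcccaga
H2-Eb1 (chr17:34305617-34305916, plus strand): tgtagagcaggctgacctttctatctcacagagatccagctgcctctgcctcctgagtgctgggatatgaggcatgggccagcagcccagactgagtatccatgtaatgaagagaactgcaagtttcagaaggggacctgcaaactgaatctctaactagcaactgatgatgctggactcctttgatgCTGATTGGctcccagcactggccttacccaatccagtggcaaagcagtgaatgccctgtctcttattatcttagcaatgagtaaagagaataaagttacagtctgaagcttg
B2m (chr2:122147437-122147736, plus strand): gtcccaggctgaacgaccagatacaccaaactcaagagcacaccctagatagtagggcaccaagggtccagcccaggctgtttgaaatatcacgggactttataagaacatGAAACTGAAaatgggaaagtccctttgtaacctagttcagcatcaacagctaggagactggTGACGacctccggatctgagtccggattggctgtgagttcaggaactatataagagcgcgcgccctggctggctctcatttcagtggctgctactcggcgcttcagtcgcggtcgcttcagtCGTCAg
Tap1 (chr17:34187306-34187605, plus strand): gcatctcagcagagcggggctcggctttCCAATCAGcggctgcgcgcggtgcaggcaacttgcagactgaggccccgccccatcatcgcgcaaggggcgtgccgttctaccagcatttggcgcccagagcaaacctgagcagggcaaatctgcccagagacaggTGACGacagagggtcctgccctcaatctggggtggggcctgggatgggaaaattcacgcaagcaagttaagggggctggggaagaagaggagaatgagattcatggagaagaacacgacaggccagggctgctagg
A window was found for 31 of the 48 members. The NF-kB site stood in the windows of 4 members, H2-K1, H2-D1, H2-Q6 and H2-Q7, which are close paralogs, and in 0.353% of the 32851 windows of all genes. This site is named for class I genes, so its presence in them was not a test. It and the interferon-stimulated element were shortened by a letter after a first search, which had matched the same members. The Y box core stood in 13 members, including H2-K1, H2-D1, H2-Aa, H2-Eb1 and Tap1, with 42.4% of member windows and 4.10% of all windows holding it. H2-K1 has 2 overlapping windows, and Psmb9 and Tap1 share their Y box, as they are divergent neighbours. The CRE core was in 42.4% of member windows and 20.8% of all windows, the interferon-stimulated element in 12.1% and 8.56%, and the gamma-activated core in 9.09% and 8.30%. In H2-Aa 2 CRE cores overlap on opposite strands. None of the 5 motifs was in the windows of H2-M5, which fell, or of Tapbp, Calr, Psmb10, H2-DMa, H2-DMb1 and H2-Ob, which rose, or in those of H2-Q10 and H2-M10.2, which were not tested. Only exact matches were searched, so a site with a differing letter was left unmarked and counted as absent. A match or its absence describes these letters only, and no binding was measured.

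Of the 48 members, 34 had enough reads to be tested. Of these, 28 were higher in PVR, 2 were lower and 4 were not called (limma on log2(normalised count + 1), Benjamini-Hochberg adjusted p under 0.05 over 15766 genes). Over all genes tested, 17.9% were higher in PVR and 12.9% lower. For 29 of the 34 members all 3 PVR values lay above all 3 Normal values, a pattern that 24.7% of all genes showed, and for 2 all lay below, as for 23.3% of all genes. The median log2 change, PVR minus Normal, was 1.98 over the 34 members and -0.016 over all genes. Of the 34, Cd1d1, H2-Ob and H2-Q5 had under 10 reads in every Normal library and passed the filter through PVR alone, so that they had to differ, and these counts and medians hold such members.

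**Figure D1:**
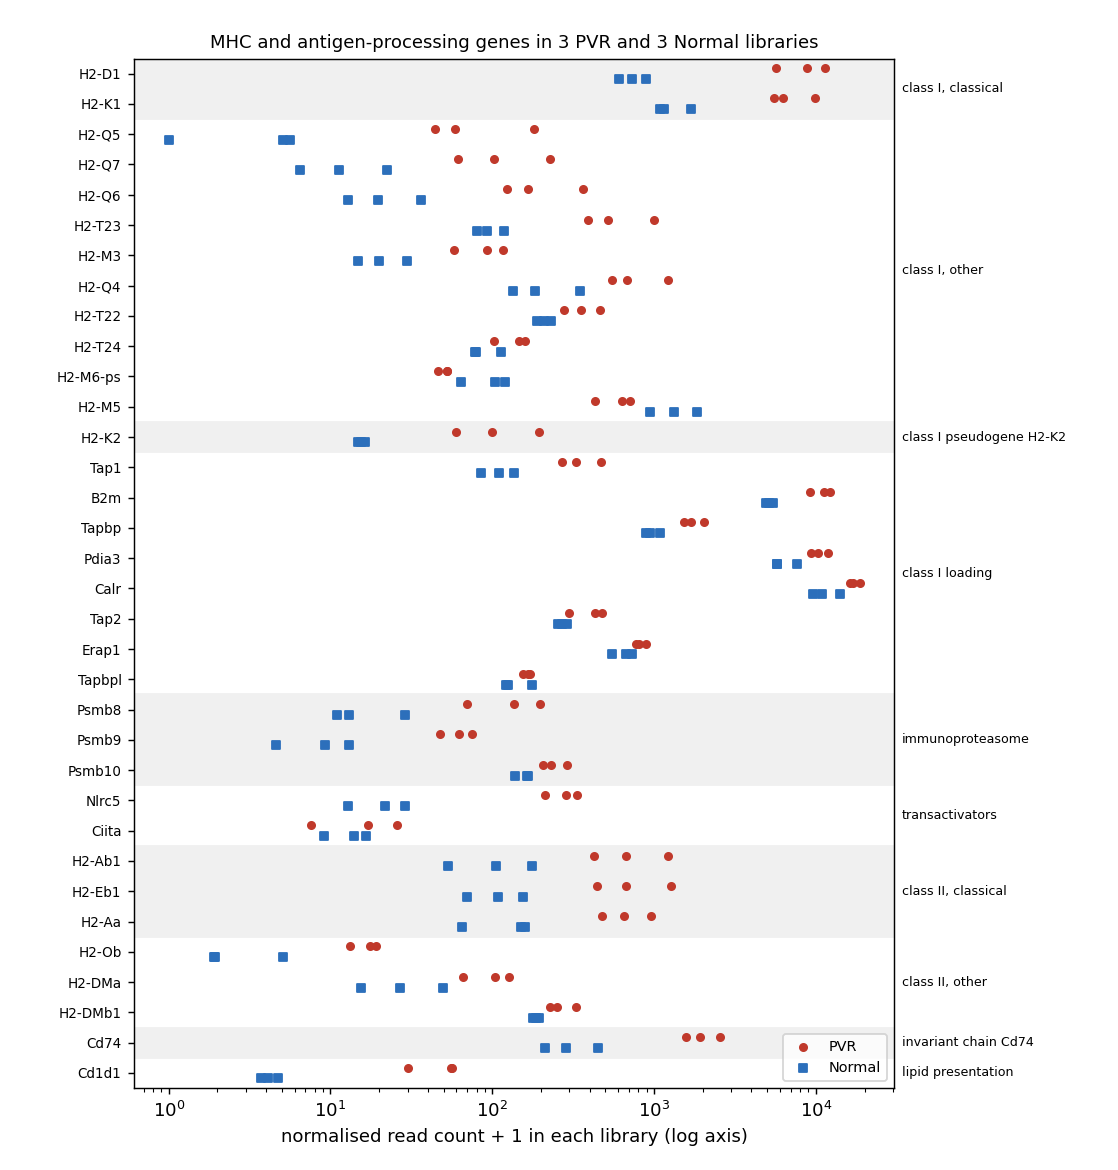
Normalised read count plus 1 (log axis) of the 34 tested members in each library, by role, with PVR as red circles above Normal as blue squares. The classical class I genes H2-D1 and H2-K1 lay apart between the groups, H2-M5 and H2-M6-ps lay lower in PVR, and the values of Ciita overlapped.

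**Figure D2:**
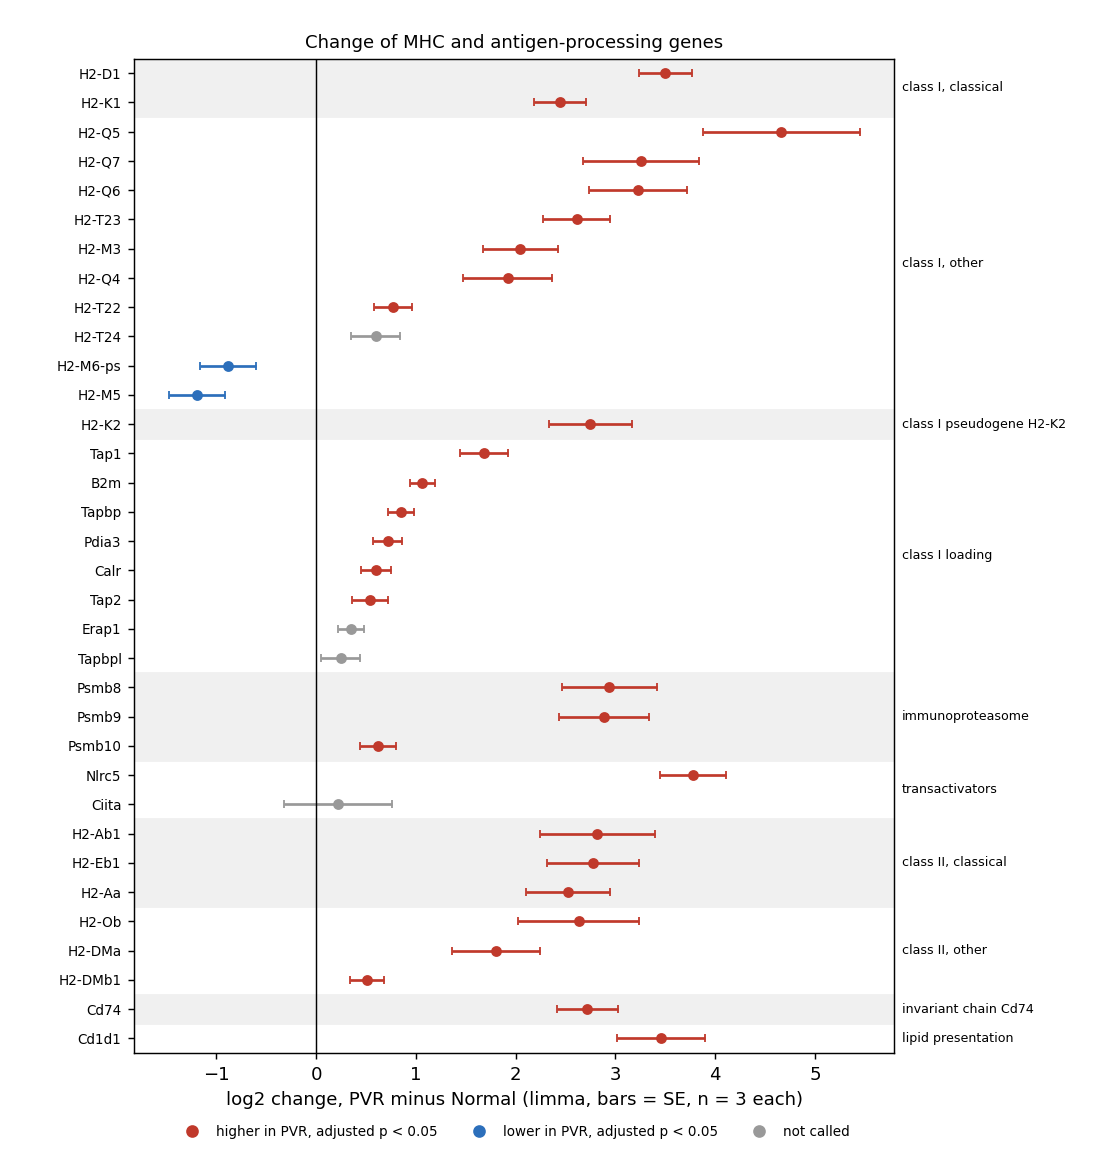
Log2 change (log2(normalised count + 1), PVR minus Normal) of the 34 tested members from limma, with bars for the SE and n = 3 libraries a group. Red points were higher in PVR, blue points lower, and the 4 grey points, H2-T24, Erap1, Tapbpl and Ciita, were not called.

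The classical class I heavy chains, which present peptide to CD8 T cells, rose together. H2-D1 (chr17:35262730-35267499, GRCm38) had 11376, 8792 and 5679 normalised counts in PVR 1 to 3, against 888, 725 and 606 in Normal 1 to 3. Its level was 11.6-fold higher in PVR (log2 change 3.50, SE 0.27, limma adjusted p = 0.000212). H2-K1 (chr17:33996017-34000347) had 9878, 6303 and 5517 in PVR, against 1694, 1090 and 1149 in Normal libraries, a log2 change of 2.45 (SE 0.26, limma adjusted p = 0.000661). For both genes the groups did not overlap, PVR 1 was the highest library and PVR 3 the lowest of its group. Together H2-K1 and H2-D1 made up 83.3, 84.6 and 81.8% of all class I heavy chain counts in PVR 1 to 3, against 48.0, 46.4 and 52.7% in Normal 1 to 3.

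Per kilobase of exon, H2-D1 exceeded H2-K1 in each PVR library, whereas H2-K1 exceeded H2-D1 in each Normal library. The length merged all annotated exons of a gene, 2579 bases for H2-D1 and 2938 for H2-K1. A single annotated transcript of each had 2102 and 1619 bases, so the order in PVR can change with the length used. Per kilobase H2-D1 averaged 3341 and H2-K1 2462 normalised counts in PVR, against 287 for H2-D1 and 446 for H2-K1 in Normal libraries. The ranges of the 2 genes overlapped in PVR (2202 to 4411 for H2-D1, 1878 to 3362 for H2-K1), but not in Normal libraries (235 to 344 for H2-D1, 371 to 577 for H2-K1). H2-D1 and H2-K1 have few 50-base stretches in common with other genes: 14.3% and 8.79% of the 50-base windows of 1 annotated transcript of each occur in transcripts of other genes.

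The fall of H2-M5 and of its neighbour H2-M6-ps went against the other members. H2-M5 (chr17:36984061-36989537, minus strand) is a nonclassical class I gene of the M region, and H2-M6-ps (chr17:36969195-36971396, minus strand) is an unprocessed pseudogene. H2-M5 had 432, 706 and 633 normalised counts in PVR, against 1847, 1336 and 947 in Normal libraries (log2 change -1.20, SE 0.28, limma adjusted p = 0.0187). H2-M6-ps had 51.5, 51.3 and 45.3 in PVR, against 119, 103 and 63.4 in Normal libraries (log2 change -0.88, SE 0.28, limma adjusted p = 0.0389). Neither gene's groups overlapped, and both were highest in Normal 1. Little of their sequence is shared: 2.23% of the 50-base windows of H2-M5 and 0.102% of those of H2-M6-ps occur in another gene.

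H2-D1, H2-K1, H2-Q4 and H2-T23 had higher mean levels per kilobase than H2-M5 in PVR, whereas no class I heavy chain had a higher mean in Normal libraries. H2-M5 has 2691 bases of exon but 1170 in 1 annotated transcript. These lengths are 2596 and 1793 for H2-Q4, and 2889 and 1472 for H2-T23. The rank of H2-M5 below H2-Q4 and H2-T23 in PVR can change with the length used. In PVR H2-M5 averaged 219 normalised counts per kilobase of exon, with a range of 161 to 262 that overlapped those of H2-Q4 (212 to 470) and H2-T23 (135 to 346). In Normal libraries it averaged 512 per kilobase, with a range of 352 to 686 that overlapped that of H2-K1. H2-M5 held 1.70, 3.96 and 4.62% of the class I heavy chain counts in PVR 1 to 3, against 34.3, 34.1 and 28.4% in Normal 1 to 3. The call on H2-M5 was lost with the replicate number as a block (limma adjusted p = 0.0626), with no filter (0.0513), without PVR 3 (0.0572) and without Normal 2 (0.0504). The call on H2-M6-ps was lost under limma-voom (adjusted p = 0.0567) and, except when Normal 3 was left out, without any 1 library (limma adjusted p between 0.0713 and 0.152).

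Of 18 nonclassical class I genes 10 were tested, and 7 of them rose, 2 fell and 1 was not called. Over all genes tested, 17.9% were higher and 12.9% lower. H2-Q5 is among the 7 and passed the filter through PVR alone. H2-T23, which encodes Qa-1, the ligand of the NKG2A receptor of natural killer and T cells, had 1000, 515 and 390 normalised counts in PVR, against 117, 91.7 and 79.8 in Normal libraries (log2 change 2.61, limma adjusted p = 0.00113). H2-M3, which presents formylated bacterial peptides, had 115, 92.3 and 56.7 in PVR, against 28.9, 13.9 and 19.0 in Normal libraries (log2 change 2.04, limma adjusted p = 0.00290). In both genes the lowest PVR library lay above the highest Normal one. H2-T22, a ligand of a subset of gamma-delta T cells, rose less (365 ± 94.4 in PVR and 209 ± 21.6 in Normal, SD, n = 3 each, log2 change 0.77). H2-T24 averaged 136 ± 30.6 in PVR and 89.1 ± 19.9 in Normal libraries and was not called (limma adjusted p = 0.0987), although it was when PVR 3 was left out (0.0389).

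In the Q region, the home of the Qa-2 antigens, the 4 tested genes H2-Q4, H2-Q5, H2-Q6 and H2-Q7, which are close paralogs, each rose, and H2-Q1 and H2-Q10 had too few reads to be tested. H2-Q5, a polymorphic pseudogene, had the largest log2 change of all members, 4.66 (SE 0.79, limma adjusted p = 0.00263), with 180, 43.3 and 57.6 normalised counts in PVR, against 4.12, 4.63 and 0 in Normal libraries. H2-Q6 averaged 216 ± 128 in PVR and 21.8 ± 12.1 in Normal, and H2-Q7 averaged 129 ± 86.0 in PVR and 12.4 ± 8.13 in Normal (SD, n = 3 each). All 3 genes were highest in PVR 1 by a wide margin and lowest in PVR 2. H2-Q4, the most abundant Q gene, had 1221, 679 and 551 in PVR, against 345, 182 and 133 in Normal libraries (log2 change 1.92, limma adjusted p = 0.0249). That call was lost without PVR 2 (0.0773), without Normal 2 (0.0801), without Normal 3 (0.0538) and with no filter (0.0810).

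Counts of these paralogs carry an uncertainty that depends on how many reads matched more than 1 of them. The share of 50-base transcript windows found in another gene was 44.7% for H2-T22, mainly in H2-T10, 35.4% for H2-Q5, 34.9% for H2-Q7 and 32.0% for H2-Q6. It was 28.8% for H2-T23 and 24.3% for H2-Q4. Over 100 bases the shares were 16.4% for H2-Q7 and 14.2% for H2-T22. How the counting handled reads with several matches is not given in the sources used here. H2-K2, a transcribed class I pseudogene beside H2-K1, also rose (193, 98.0 and 58.6 normalised counts in PVR, against 14.4, 13.9 and 15.4 in Normal libraries, log2 change 2.75), with 10.9% of its windows shared.

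Of the genes that load class I molecules, 6 of 8 rose, beside 17.9% of all genes tested that were higher. They rose by less than the heavy chains (median log2 change 0.66 over the 8, against 2.24 over the 12 tested heavy chains). The 12 include H2-Q5, which passed the filter through PVR alone. B2m, the shared light chain, had 12240, 11204 and 9150 normalised counts in PVR, against 4945, 5446 and 5099 in Normal libraries (log2 change 1.06, SE 0.13, limma adjusted p = 0.000319). The groups did not overlap and the rise was 2.10-fold. Summed over the 20 class I heavy chain genes, counts per kilobase stood at 0.664, 0.510 and 0.475 of the B2m level in PVR 1 to 3, against 0.355, 0.237 and 0.211 in Normal 1 to 3. The lowest PVR ratio was above the highest Normal ratio. B2m has 860 bases by exons and by its transcript, whereas the transcripts of H2-K1 and H2-D1 are shorter than their exons. The level of this ratio therefore depends on the length used, and the ratio was not tested.

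The transporter subunits moved unequally. Tap1 had 471, 269 and 331 normalised counts in PVR, against 84.5, 108 and 135 in Normal libraries (log2 change 1.68, limma adjusted p = 0.000862). Tap2 had 478, 298 and 428 in PVR, against 255, 269 and 287 in Normal libraries (log2 change 0.54, limma adjusted p = 0.0440). The groups stood apart for both, but PVR 2 exceeded Normal 3 by little in Tap2. The Tap2 call was lost without any 1 library other than PVR 2 (limma adjusted p between 0.0795 and 0.142), under limma-voom and with scaling to library totals (0.0701). Exons of Tap1 overlap those of Psmb9 on the opposite strand by 212 bases, and whether the counting used strand is not given.

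Tapasin (Tapbp), which bridges TAP and the heavy chain, averaged 1756 ± 255 normalised counts in PVR and 973 ± 108 in Normal (log2 change 0.85, SD, n = 3 each). The chaperones of the loading complex, which also fold other glycoproteins, rose as well: Pdia3 averaged 10484 ± 1300 in PVR and 6402 ± 1072 in Normal (log2 change 0.72), and Calr averaged 17291 ± 1263 in PVR and 11550 ± 2393 in Normal (log2 change 0.60). The Calr call was lost without PVR 1 (limma adjusted p = 0.0509), Normal 1 (0.0510) or Normal 2 (0.0511). Erap1, the aminopeptidase that trims peptides, averaged 824 ± 59.5 in PVR and 650 ± 94.4 in Normal and was not called (limma adjusted p = 0.0668). With the replicate number as a block Erap1 was called (0.0412), as it was without Normal 3 (0.0492). Tapbpl, the tapasin-related peptide editor TAPBPR, averaged 164 ± 7.79 in PVR and 140 ± 30.6 in Normal libraries, and its groups overlapped (limma adjusted p = 0.373).

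All 3 catalytic subunits of the immunoproteasome, the form of the proteasome that favours class I ligands, were higher in PVR. Psmb8 had 196, 134 and 68.9 normalised counts in PVR, against 27.8, 12.0 and 9.97 in Normal libraries (log2 change 2.94, SE 0.48, limma adjusted p = 0.00175). Psmb9 had 74.1, 46.7 and 61.4 in PVR, against 8.25, 12.0 and 3.63 in Normal libraries (log2 change 2.88, SE 0.45, limma adjusted p = 0.00125). The groups of both lay far apart. Psmb10 had 290, 229 and 204 in PVR, against 137, 166 and 162 in Normal libraries (log2 change 0.62, limma adjusted p = 0.0259). The Psmb10 call was lost without PVR 1 (0.0898), PVR 2 (0.0538), Normal 1 (0.0945) or Normal 3 (0.0555).

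The constitutive subunits that these replace were not called: Psmb5 averaged 790 ± 97.1 in PVR and 923 ± 48.2 in Normal, Psmb6 averaged 1193 ± 224 in PVR and 1249 ± 93.8 in Normal, and Psmb7 averaged 900.2 ± 138 in PVR and 1067 ± 52.6 in Normal (limma adjusted p = 0.170, 0.701 and 0.162). Psmb8 counts were 22.2, 19.6 and 8.57% of those of Psmb5 in PVR, against 3.14, 1.23 and 1.10% in Normal libraries. Psmb9 counts were 5.17, 4.71 and 5.33% of those of Psmb6 in PVR, against 0.616, 0.956 and 0.315% in Normal libraries. Psmb10 counts were 29.1, 30.9 and 21.2% of those of Psmb7 in PVR, against 13.4, 15.7 and 14.4% in Normal libraries. In each pair every PVR ratio exceeded every Normal ratio, by 3.17, 2.96 and 0.88 on the log2 scale. With 3 libraries a group the two-sided exact permutation test gives p = 0.1 at the least, which each pair reached (0.133 adjusted over 4 ratios).

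**Figure D3:**
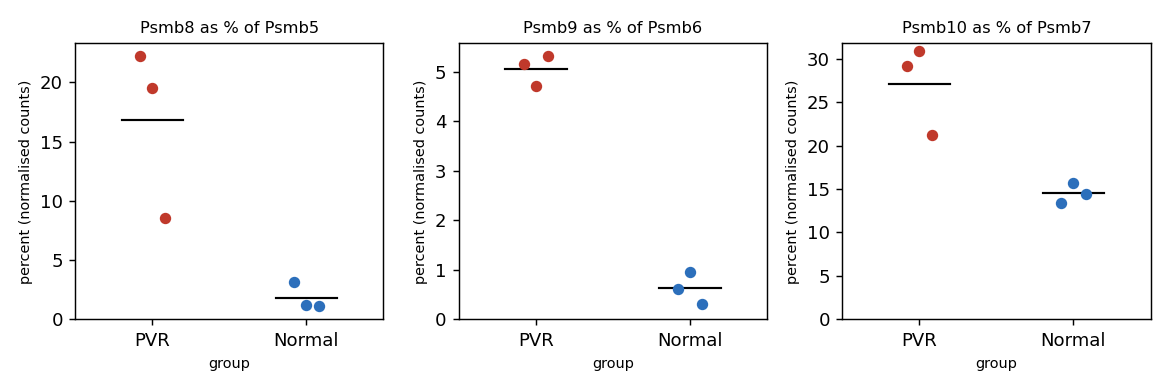
Normalised count of each immunoproteasome subunit as a percentage of the constitutive subunit it replaces, 1 point a library and a line at the mean of 3, PVR left and Normal right. The ratio of Psmb9 to Psmb6 ranged from 4.71 to 5.33% in PVR and from 0.315 to 0.956% in Normal libraries.

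The 2 transactivators parted. Nlrc5, the transactivator of class I genes, had 335, 286 and 212 normalised counts in PVR, against 20.6, 27.8 and 11.8 in Normal libraries. It was 13.8-fold higher in PVR (log2 change 3.78, SE 0.33, limma adjusted p = 7.9e-05), second only to H2-Q5 in log2 change among the tested members. Ciita, the transactivator of class II genes, had 24.7, 15.9 and 6.61 in PVR, against 15.5, 13.0 and 8.16 in Normal libraries. Its groups overlapped and no difference was detectable at this depth (log2 change 0.22, SE 0.54, limma adjusted p = 0.792), with 7 to 24 reads in PVR and 9 to 15 in Normal libraries. The sign of Ciita turned without PVR 1 (-0.17) and without Normal 3 (-0.024).

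All 6 tested class II chain genes were higher in PVR, with a median log2 change of 2.58, beside 17.9% of all genes that were higher. H2-Ob is 1 of the 6, passed the filter through PVR alone and so had to differ. H2-Aa, the classical A alpha chain, had 960, 475 and 653 normalised counts in PVR, against 149, 159 and 64.3 in Normal libraries (log2 change 2.52, SE 0.42, limma adjusted p = 0.00564). Its beta chain H2-Ab1 had 1222, 424 and 674 in PVR, against 175, 105 and 52.6 in Normal libraries (log2 change 2.82, SE 0.58, limma adjusted p = 0.0173). H2-Eb1, the E beta chain, had 1269, 444 and 669 in PVR, against 154, 107 and 68.9 in Normal libraries (log2 change 2.78, SE 0.46, limma adjusted p = 0.00646). None of the 3 overlapped between groups, and in all 3 PVR 1 was the highest and PVR 2 the lowest PVR library. The H2-Ab1 call was lost without PVR 3 (0.0591), without Normal 2 (0.0563) and with no filter (0.0570), although its log2 change stayed between 2.82 and 2.86 in them.

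Cd74, the invariant chain, followed the same order. It had 2564, 1577 and 1909 normalised counts in PVR, against 451, 283 and 209 in Normal libraries (log2 change 2.72, SE 0.31, limma adjusted p = 0.00117). Its level per kilobase was 2.34, 4.11 and 3.31 times that of H2-Eb1 in PVR 1 to 3, against 3.40, 3.05 and 3.52 times in Normal 1 to 3, and these ratios overlapped. The E alpha gene, annotated as the polymorphic pseudogene H2-Ea-ps, had no read in any PVR library and 2 reads in 1 Normal library. It is not transcribed in mice of the b haplotype, and the labels used here give no strain.

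The peptide editors of class II rose less evenly. H2-DMa, which helps to release the invariant chain peptide, had 126, 104 and 65.2 normalised counts in PVR, against 48.4, 25.9 and 14.5 in Normal libraries (log2 change 1.80, limma adjusted p = 0.0124). Its partner H2-DMb1 had 330, 226 and 250 in PVR, against 186, 179 and 193 in Normal libraries (log2 change 0.51, limma adjusted p = 0.0467). The groups of both stood apart, but the H2-DMb1 call was lost without any 1 library other than PVR 2 (limma adjusted p between 0.0640 and 0.152), under limma-voom (0.0514), with no filter (0.0616) and with scaling to library totals (0.0764). H2-DMb2, a close copy with 25.2% of its 50-base windows found in H2-DMb1, had 33, 17 and 9 reads in PVR and 0 in each Normal library, so that it was at least 7.20-fold higher against a floor of 3 reads per library, taking the PVR mean as exact. H2-Ob, an inhibitor of the editor known from B cells, was low throughout (16.5, 18.2 and 12.3 normalised counts in PVR, against 4.12, 0.926 and 0.906 in Normal libraries, log2 change 2.63).

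Set against each other, the summed counts of both classes were higher in PVR, by similar factors. The class I heavy chain genes summed to 25507, 17846 and 13689 normalised counts in PVR 1 to 3, against 5383, 3914 and 3333 in Normal 1 to 3, a 4.52-fold difference of the means. The class II chain genes summed to 3968, 1711 and 2351 in PVR, against 720, 579 and 397 in Normal libraries, a 4.73-fold difference. Class II counts were 15.6, 9.59 and 17.2% of class I counts in PVR, against 13.4, 14.8 and 11.9% in Normal libraries. The groups overlapped, with 14.1 ± 4.0% in PVR and 13.4 ± 1.4% in Normal (SD, n = 3 each).

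This balance turned on H2-M5. Without it, in a comparison chosen after its values were seen, class I rose 6.50-fold and class II counts were 15.8, 9.98 and 18.0% of class I counts in PVR, against 20.4, 22.5 and 16.6% in Normal libraries. Those values still overlapped. With the classical chains alone, class I rose 7.73-fold and class II 6.56-fold. The ratio of H2-Ab1 to H2-K1 was 12.4, 6.72 and 12.2% in PVR, against 10.3, 9.60 and 4.57% in Normal libraries, and did not differ beyond the spread (two-sided exact permutation p = 0.5, smallest possible 0.1).

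**Figure D4:**
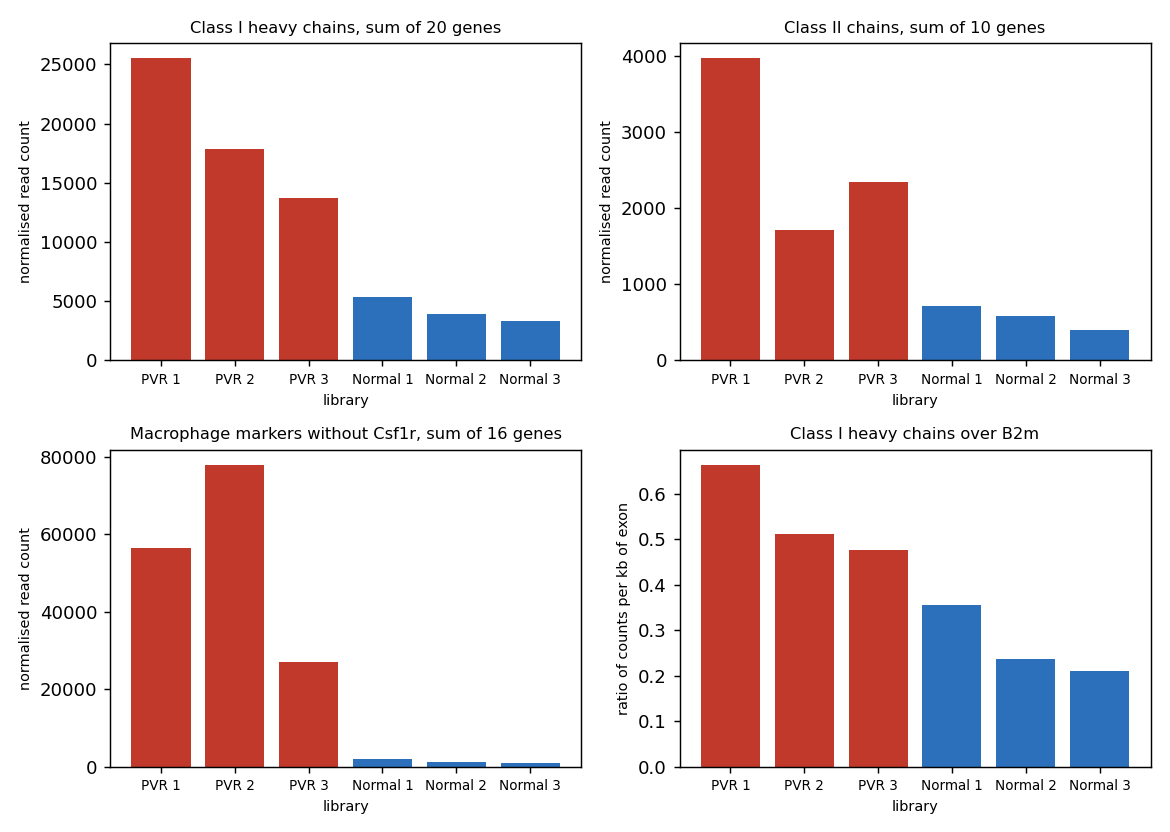
Summed normalised counts of class I heavy chain genes, class II chain genes and macrophage markers other than Csf1r, and the ratio of class I heavy chains to B2m per kilobase of exon, 1 bar a library, PVR left and Normal right. Class I was highest in PVR 1 (25507), class II was lowest in PVR 2 (1711) within PVR, and the macrophage sum was highest in PVR 2 (77982).

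The 3 PVR libraries ranked alike only in part for the members and for the macrophage markers. PVR 1 was the highest PVR library for 28 of the 34 tested members, 10 of 12 class I heavy chains and 5 of 6 class II chains, whereas PVR 2 was highest for 10 of 17 macrophage markers. The lowest PVR library was PVR 3 for 16 of the 17 macrophage markers. Among the members PVR 3 was lowest for 17 and PVR 2 for 15 of the 34. For class I heavy chains PVR 3 was lowest for 7 of 12, and for class II chains PVR 2 was lowest for 4 of 6. The 16 macrophage markers other than Csf1r summed to 56381, 77982 and 27031 in PVR, against 2082, 1091 and 970 in Normal libraries, and the median log2 change over all 17 was 4.30. Csf1r had 6367 to 8235 normalised counts in PVR and 9343 to 11181 in Normal libraries. Ptprc, the leukocyte antigen CD45, had 648, 893 and 342 in PVR, against 35.0, 40.7 and 20.8 in Normal libraries. H2-Ab1 counts were 1.89, 0.474 and 1.97 times those of Ptprc in PVR, against 5.0, 2.57 and 2.52 times in Normal libraries. The part of these cells in the rise of class I and class II genes was not tested.

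Markers of other antigen-presenting and immune cells had lower sums than the macrophage markers. Of 10 dendritic cell markers 5 were tested and 4 rose (Itgax, Flt3, Ccr7 and Clec10a), with sums of 718, 523 and 371 in PVR, against 155, 119 and 107 in Normal libraries, in the same order as class I. Of 7 B cell markers none had enough reads to be tested, with sums of 15.9 to 48.4 in PVR and 2.78 to 15.5 in Normal libraries. Of 9 T and natural killer cell markers only Cd4 was tested and rose, with sums of 49.0 to 65.2 in PVR and 7.25 to 23.7 in Normal libraries. All 3 tested neutrophil markers rose, with sums of 194 to 449 in PVR and 9.06 to 26.8 in Normal libraries. Fibroblast markers had larger sums, 12380 to 18647 in PVR and 2311 to 4041 in Normal libraries, and 6 of 7 rose. Among all genes tested, 17.9% were higher in PVR. Of the B cell markers 3 were at 0 in every Normal library, as were 3 of the T and natural killer cell markers. None of 7 endothelial markers was called. The part of these markers in the result was not tested.

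Other genes of the 2 pathways, listed by function, had a smaller median change in class I than in class II. Of 25 other class I pathway genes tested, 7 were higher and 1 lower, beside 17.9% and 12.9% of all genes tested. The median log2 change of the 25 was 0.21. The rises were led by Ncf1 (410 ± 179 in PVR and 25.7 ± 2.11 in Normal) and Cybb (1033 ± 421 in PVR and 79.2 ± 21.8 in Normal), subunits of the phagocyte oxidase, and by Sec61a1, a channel subunit of the endoplasmic reticulum (2461 ± 312 in PVR and 1354 ± 119 in Normal). The cytosolic aminopeptidase Npepps was lower (2821 ± 134 in PVR and 3459 ± 202 in Normal, limma adjusted p = 0.0467), a call lost without any 1 library except PVR 3, with no filter and with TMM scaling. The regulators of the proteasome cap, Psme1, Psme2 and Psme3, were not called. Psme1 averaged 702 ± 54.2 in PVR and 605 ± 33.3 in Normal.

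Of 24 other class II pathway genes tested, 13 (54.2%) were higher and 3 lower, with a median log2 change of 1.39. Over all genes tested, 17.9% were higher and 12.9% lower. Cathepsin S (Ctss), the protease that trims the invariant chain, had 8911, 7712 and 3443 normalised counts in PVR, against 216, 119 and 80.7 in Normal libraries (log2 change 5.59). Slc11a1, a metal transporter of the phagosome, averaged 1075 ± 391 in PVR and 53.7 ± 14.4 in Normal, and the lysosomal marker Cd68 averaged 2365 ± 960.2 in PVR and 234 ± 112 in Normal. Cd68 was no longer called with the replicate number as a block (limma adjusted p = 0.0519). Ctss, Slc11a1 and Cd68 are abundant in macrophages, and Cd68 is also in the macrophage marker list. The 3 lower genes were Rfxap (147 ± 16.5 in PVR and 216 ± 15.7 in Normal), Nfyc (630 ± 55.8 in PVR and 834 ± 11.1 in Normal) and Creb1 (549 ± 42.4 in PVR and 706 ± 37.1 in Normal). They encode factors known to bind class II promoters, as do Nfya, Nfyb, Rfx5 and Rfxank, which were not called. Each of the 3 lost its call without Normal 1 or without Normal 2, at limma adjusted p between 0.0524 and 0.122.

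Of 17 tested genes of interferon signalling, 8 (47.1%) were higher, none was lower and the median log2 change was 1.17. Over all genes tested, 17.9% were higher and 12.9% lower. Rsad2, an antiviral effector, had 848, 177 and 156 normalised counts in PVR, against 20.6, 42.6 and 19.9 in Normal libraries (log2 change 3.41, limma adjusted p = 0.0140), a call lost without Normal 1 (0.0603), without Normal 3 (0.0637), with no filter (0.0603) and under limma-voom (0.0921). Irf8 averaged 354 ± 144 in PVR and 37.9 ± 18.0 in Normal, and the interferon gamma receptor chain Ifngr2 averaged 540 ± 126 in PVR and 180 ± 26.7 in Normal. Isg15, named after its values were seen, had 369, 36.4 and 68.9 in PVR, against 39.2, 31.5 and 11.8 in Normal libraries, so that PVR 1 alone was far above the rest. PVR 1 was the highest PVR library for 13 of the 17 genes. Ifng was not analysed here.

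Cd1d1, which presents lipids to natural killer T cells, had 55.6, 54.7 and 29.3 normalised counts in PVR, against 3.09, 3.70 and 2.72 in Normal libraries (log2 change 3.46, limma adjusted p = 0.000473), and 25.8% of its 50-base windows occur in Cd1d2. Among the 14 members not tested, no library held more than 33 reads, and no Normal library held more than 9. They were H2-DMb2, H2-Oa, H2-Eb2, H2-Ea-ps, H2-Pa, H2-Pb, H2-Q1, H2-Q10, H2-Bl, H2-T-ps, H2-T10, H2-M2, H2-M10.1 and H2-M10.2. H2-T10 averaged 17.9 ± 8.24 normalised counts in PVR and 2.34 ± 2.61 in Normal libraries, and shares 42.9% of its 50-base windows, mainly with H2-T22.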

How the data were processed

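RNA was extracted with TRIzol per the labels, and 3 PVR and 3 Normal libraries were grouped and numbered by their titles. The files hold a deposited signal, namely reads per gene scaled by the authors with a single factor a library, since 100% of values are whole multiples of 1 step per library within 0.001 reads. The factors equal the median-ratio factors of DESeq2. Genome build mm10 and DESeq2 are named per the submitters' processing notes. The aligner and the counter, with its strand setting, remain not given in the sources used here. Depth was 15269983 to 19173187 reads. Floors cover counting error only, since reads are not independent molecules.

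Members and gene lists were chosen with earlier results of these data known. limma 3.58.1 (R 4.3.3), with trend and robust moderation, was run on log2(normalised count + 1) for 15766 genes passing filterByExpr of edgeR 4.0.16 (minimum count 10), with Benjamini-Hochberg adjustment over them and a threshold of 0.05. A log2 change understates that of low genes. Every tested member could be named. Values per library are given for fixed core members, for those with the largest changes and for the most abundant, and of each other list up to 3 called genes a direction, those that changed most and whose groups stand apart, are named. Gene positions and exon lengths, with all annotated exons of a gene merged, are from GENCODE M21 (GRCm38, also called mm10), which holds all 48 members. Exons of 15 members overlap another gene. Window shares compare 50-base and 100-base stretches of transcripts.

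Same-numbered PVR and Normal libraries deviated together from their group means (correlations 0.206, 0.195 and 0.179 for replicates 1 to 3), while other pairings gave -0.137 to -0.0689. The numbers may therefore pair the libraries. The reported limma calls and permutation tests did not use this pairing, which enters only in the block and the sign flips given as alternatives. The labels do not say what the number stands for. Alternatives were other pseudocounts, filters and scalings, the quasi-likelihood test of edgeR, DESeq2 1.42.0, limma-voom, the block, and leaving out libraries. Tables and plots were made in Python 3.11.15 with numpy 2.4.6, pandas 2.3.3, matplotlib 3.10.9 and scipy 1.17.1.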

Additional observations from a re-analysis of the deposited data

How the results depend on the processing

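Under 17 alternative settings, 20 of the 30 called members kept their call wherever they were tested. Among them were H2-K1, H2-D1, B2m, Nlrc5, Tap1, Psmb8, Psmb9, H2-Aa, Cd74 and H2-T23. H2-Ob is also 1 of the 20, but it had too few reads to be tested under the stricter of the alternative filters. The number of members higher in PVR ranged from 24 to 29, and was 29 with the replicate block, which also called 3079 genes higher and 2249 lower. The number lower in PVR, 2 as reported, was 1 with no filter, under limma-voom and with the replicate block, and 0 without PVR 3 and Normal 2 together. Leaving out 1 library gave 0 to 2. Only the tested members and a subset of the other pathway genes, those picked to be named, were followed under each setting. Among these the block changed the calls of H2-M5, Erap1 and Cd68 and no other. Exact sign flips of 3 pairs left the ratios of genes at p = 0.75 (H2-Ab1 to H2-K1) and 0.25 (the proteasome pairs), and 0.25 is the smallest they can give. Without Normal 1, 1307 genes were lower in PVR, against 2033 as reported, and the range over single libraries left out was 1307 to 2026. The log2 difference of class II over class I was 0.040 as reported and -0.47 without H2-M5, because H2-M5 holds a larger share of the class I sum in Normal libraries. The sign turned for Ciita without PVR 1 (-0.17) and without Normal 3 (-0.024) and for Psmb6 without PVR 2 (0.044), and the cause was not tested. Over single libraries left out, the log2 change of Ciita ranged from -0.17 to 0.70 and that of Psmb6 from -0.22 to 0.044. Without PVR 3 and Normal 2 together, H2-Eb1 (limma adjusted p = 0.0846) and H2-T22 (0.0692) were also lost. Depth limits what can be said of the 14 members with too few reads to be tested.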
